A study of Mus musculus with 9 samples.

Results

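The cartilage genes outside the collagens were described as a set of 10 names, Sox9, Sox5, Sox6, Acan, Matn1, Matn3, Matn4, Cnmd, Comp and Hapln1. Members were found by symbol, and each symbol matched 1 row, so the set held 10 of the 54532 genes of the count table. Cartilage forms when mesenchymal cells condense and turn on SOX9, the transcription factor that specifies chondrocytes, which then acts with its partners SOX5 and SOX6 on the genes of the cartilage matrix. That matrix holds aggrecan bound to hyaluronan through link protein, together with adaptor proteins such as the matrilins and COMP. In the embryonic face most of the mesenchyme comes from the neural crest, and Meckel's cartilage and the nasal capsule form from it.

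RNA was sequenced from the lambdoidal junction, where the medial nasal, lateral nasal and maxillary processes of the face meet, in C57BL/6J mouse embryos. The groups were embryonic days E10.5, E11.5 and E12.5, each with 3 libraries (replicates 1 to 3) and each library made from pooled embryos. The labels name no engineered allele or treatment, so stage was the only labelled difference. The comparisons ask how these genes changed from 1 stage to the next and over the whole interval. Because whole tissue was sequenced, fewer cells of a type and less RNA per cell cannot be told apart, and p-values measure the spread between pools only.

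Library depth ran from 16581009 to 20836804 counts in genes, and levels below are CPM, counts scaled to library size by TMM. All 8 facial mesenchyme markers were detected, with a summed level of 1040.85 to 2683 CPM over the libraries. E10.5 replicate 3 stood apart from the other libraries. Its summed mesenchyme level was 1040.85 CPM against 1699 and 1721 in the other E10.5 libraries, its endothelial sum was 112 CPM against 281 and 287, and its epithelial sum was 757 CPM against 414 and 472. Its deviation from the stage mean also followed the GC content of the genes, with a Spearman correlation across genes of -0.55, where the other libraries lay between -0.26 and 0.47. For the members, calls that rest on it are given with and without it.

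The 8 members with a start site in the RefSeq promoter table of the GRCm38.p6 assembly were Sox5, Sox6, Acan, Matn1, Matn3, Matn4, Cnmd and Hapln1. Sox9 and Comp had no entry. The 250 bases upstream of the RefSeq start of the 4 genes that carry most of the findings are shown 5′ to 3′, because 3 of them rose by E12.5 and 1 fell. They are chr7:79052976-79053225 on the plus strand for Acan, chr2:164405161-164405410 on the minus strand for the first start of Matn4, chr14:79662184-79662433 on the minus strand for Cnmd and chr12:8947679-8947928 on the plus strand for Matn3. Capitals mark any of these motifs on either strand. The first is the TATA box, with the letters TATAAA, which many promoters with a focused start carry. The second is the GC box, with the letters GGGCGG, and the third is the CCAAT box. The core bound by SOX proteins was also searched for, with its usual letters ACAAAG and with a second form that some SOX proteins also bind, which is written ACAATG here.
Acan: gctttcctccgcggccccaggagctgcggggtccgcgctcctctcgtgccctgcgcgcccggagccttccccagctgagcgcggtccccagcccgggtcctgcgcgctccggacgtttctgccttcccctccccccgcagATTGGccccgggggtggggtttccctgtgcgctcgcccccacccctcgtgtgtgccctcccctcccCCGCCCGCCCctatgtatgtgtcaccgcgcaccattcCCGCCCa
Matn4: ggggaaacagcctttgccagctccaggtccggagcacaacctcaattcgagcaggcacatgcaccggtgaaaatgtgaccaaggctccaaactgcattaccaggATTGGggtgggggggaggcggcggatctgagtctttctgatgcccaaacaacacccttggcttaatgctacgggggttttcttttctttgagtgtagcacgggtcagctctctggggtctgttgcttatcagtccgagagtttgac
Cnmd: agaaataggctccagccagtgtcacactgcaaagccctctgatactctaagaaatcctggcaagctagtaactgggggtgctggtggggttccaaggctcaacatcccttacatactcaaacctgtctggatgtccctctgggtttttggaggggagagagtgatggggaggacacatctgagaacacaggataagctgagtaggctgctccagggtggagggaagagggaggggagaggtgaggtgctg
Matn3: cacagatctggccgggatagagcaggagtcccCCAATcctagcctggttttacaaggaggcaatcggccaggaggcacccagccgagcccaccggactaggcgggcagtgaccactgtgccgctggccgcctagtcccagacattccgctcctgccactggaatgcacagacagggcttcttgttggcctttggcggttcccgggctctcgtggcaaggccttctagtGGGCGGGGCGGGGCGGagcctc

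None of these 4 windows held either SOX core, which 25.2% of the 32851 promoters of the table held. A missing match says only that these letters are not in the window. The Acan window was 74.4% G or C, against a median of 52.4% over all promoters, and held 3 GC boxes, of which those 44 and 40 bases upstream of the start share bases, and a CCAAT box 110 bases upstream. The Matn3 window, at 65.2% G or C, held 3 overlapping GC boxes 22, 17 and 12 bases upstream and a CCAAT box 218 bases upstream. The first Matn4 window held 1 CCAAT box 146 bases upstream, and its second start had a GC box 6 bases upstream. The Cnmd window held none of the motifs. Nor did that of Hapln1, chr13:89540386-89540635, which is inside the gene. Over all promoters a GC box was present in 32.7%, a CCAAT box in 33.8% and a TATA box in 12.4%. The upstream windows of Sox5 and Sox6 did hold SOX cores. ACAATG lay 154 bases upstream of the only Sox5 start listed, whose window, chr6:143947107-143947356, is inside the gene. ACAAAG lay 113 bases upstream of the first of 6 Sox6 starts. With 6 windows to match in, Sox6 cannot be set against the share per promoter.

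Over the 3 stages 3 of the genes rose and 2 fell, while Sox9 stayed between 96.1 and 159 CPM in all 9 libraries. Acan, Matn4 and Cnmd rose between E11.5 and E12.5 by 14.1-fold, 32.6-fold and 28.5-fold. Matn3 and Hapln1 fell between E10.5 and E11.5, to 0.455 and 0.415 of their earlier levels, and Matn3 fell again by E12.5. Sox9 passed no test at any interval. Matn1 and Comp had too few counts to be tested. Here and below a gene was called changed where edgeR's quasi-likelihood test gave a Benjamini-Hochberg adjusted p of at most 0.05 over all genes and the log2 fold change was at least 1 in size.

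**Figure D1:**
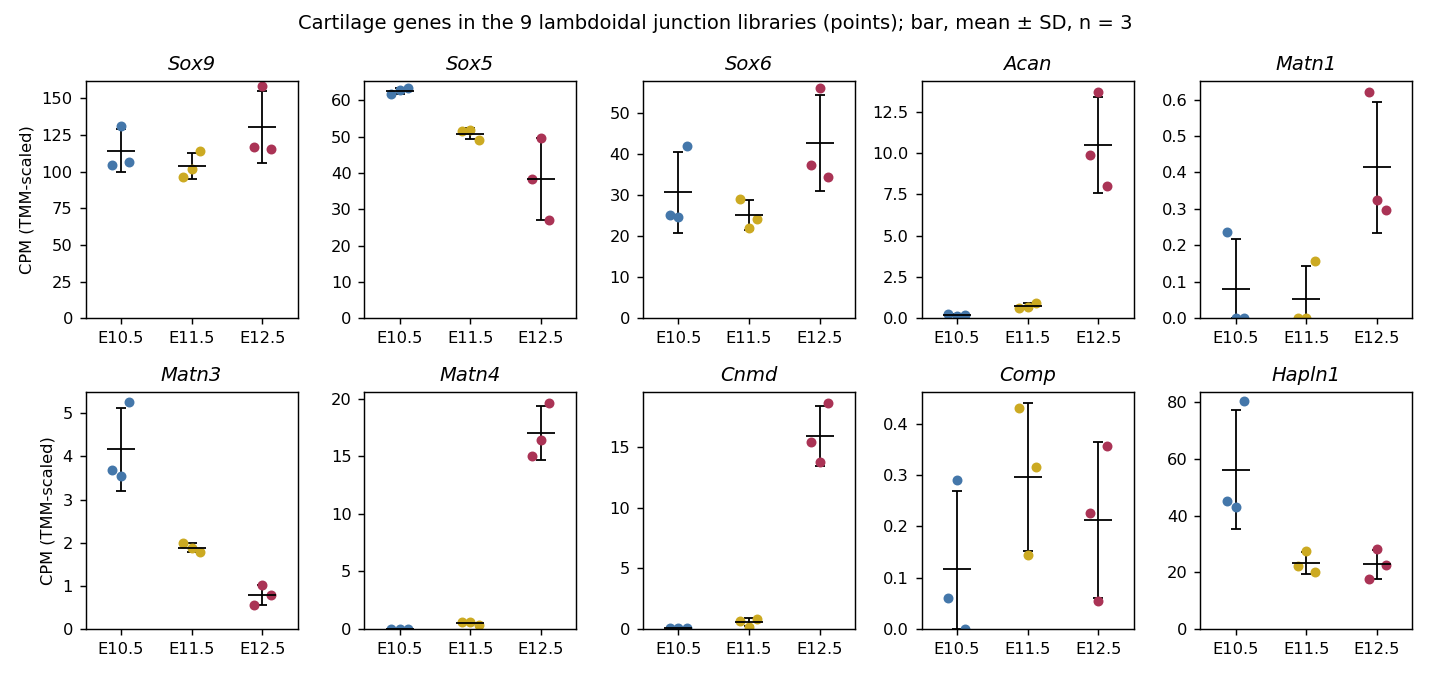
CPM of each of the 10 genes in the 9 libraries, by stage, on linear axes that start at 0 and differ between panels. Points are libraries, the wide bar is the mean and the error bars are the SD of the 3 libraries, cut at 0. Acan, Matn4 and Cnmd lie near 0 until E12.5, where their means are 10.5, 17.02 and 15.97 CPM, whereas Hapln1 and Matn3 are highest at E10.5.

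From E10.5 to E11.5, 1 of the 6 tested members was called up and 2 were called down. Over all 15708 genes tested, 3.46% were called up and 2.61% down. The libraries of the 2 stages did not overlap for 4 of these 6 members, against 36.7% of all genes. The median log2 fold change of the 6 members was -0.29, and that of all genes was -0.03. From E11.5 to E12.5, 3 of 8 tested members were called up and 1 down, against 4.14% and 0.962% of 15808 genes, and 6 of the 8 did not overlap, against 35.3%. Their median was 0.54, with 0.02 over all genes. From E10.5 to E12.5, 3 of 8 were called up and 2 down, against 9.97% and 5.08% of 15899 genes, and 6 of the 8 did not overlap, against 42.4%. The median was 0.34, which Matn4 and Cnmd exceed at any bound, with -0.01 over all genes. The comparisons share libraries and are not independent of each other. Members that passed the low-count filter only through the stage where they are high had to differ between stages, as with Acan at 9 counts at E10.5 and with Matn4 and Cnmd before E12.5, so these counts describe the tested members and not the set of 10.

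**Figure D2:**
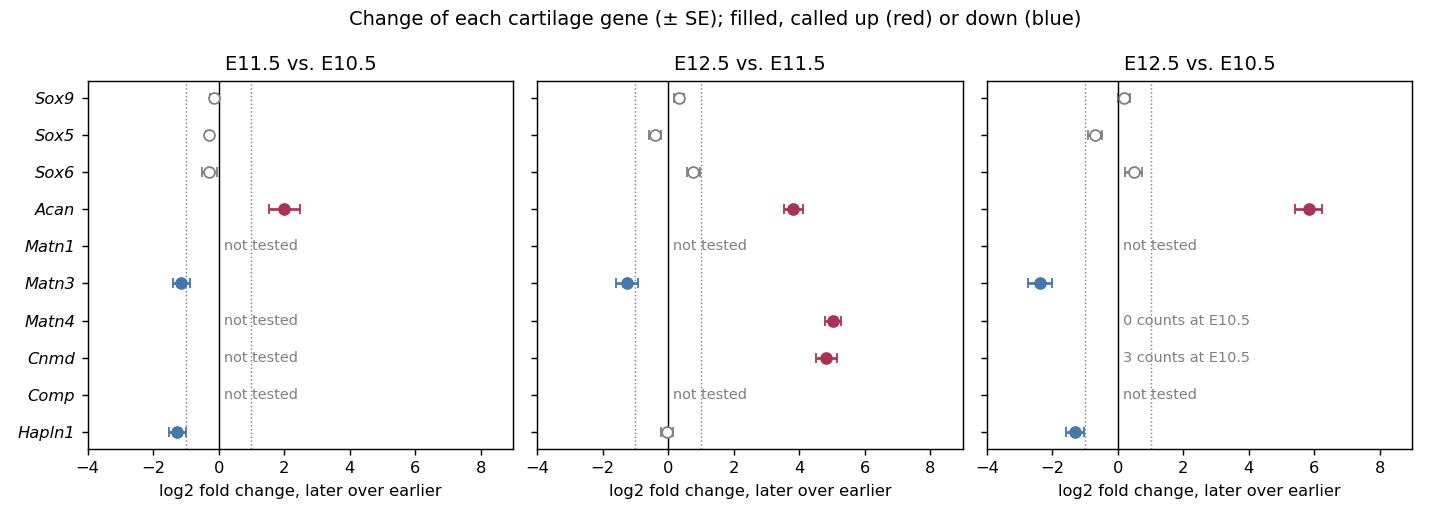
Log2 fold change between stages for each gene, positive where the later stage is higher, with its SE, in the 3 comparisons. Filled red points were called up, filled blue points called down and open points not called, dotted lines mark a log2 fold change of 1 in size, and Matn4 and Cnmd have no point in the last panel because they had 0 and 3 counts at E10.5. The red points for Acan, Matn4 and Cnmd at E12.5 vs. E11.5 lie at 3.82, 5.03 and 4.83, while the 3 Sox genes lie within 1 of 0 in every panel.

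Sox9 lies on chromosome 11 at 112782224 to 112787760 (GRCm38), on the plus strand. Its level was 105, 131 and 107 CPM at E10.5, 96.1, 102 and 114 CPM at E11.5 and 117, 159 and 116 CPM at E12.5. The E12.5 libraries all lay above those of E11.5, but both groups overlapped the E10.5 range, with means of 114 ± 14.7, 104 ± 9.04 and 130 ± 24.6 CPM (SD, n = 3). By edgeR's quasi-likelihood test the log2 fold change was -0.13 ± 0.12 (SE) in the first interval, with a Benjamini-Hochberg adjusted p of 0.529. It was 0.32 ± 0.15 in the second, with an adjusted p of 0.175, and 0.20 ± 0.19 over both, with an adjusted p of 0.488. Across the alternative settings the 3 values stayed within -0.20 to 0.40.

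Sox5 encodes an SRY-box factor without an activation domain of its own that works beside SOX9 in chondrocytes. Its gene is on chromosome 6 at 143828425 to 144781977, on the minus strand. Its level was 61.7, 62.7 and 63.4 CPM at E10.5, 51.4, 51.7 and 49.0 CPM at E11.5 and 38.3, 49.5 and 27.0 CPM at E12.5. The E11.5 libraries all lay below those of E10.5, and the E12.5 libraries spread widely, with replicate 2 inside the E11.5 range. No call was made. The log2 fold change from E10.5 to E12.5 was -0.70 ± 0.22 (SE), with an adjusted p of 0.0383 by edgeR's quasi-likelihood test, short of the fold threshold. Of the Sox5 exon bases, 9.25% also belong to Sox5os1 on the opposite strand, and the strand setting of the counting is not given in the sources used here.

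Sox6, the close relative of Sox5, lies on chromosome 7 at 115470872 to 116038796, on the minus strand. Its level was 25.3, 24.7 and 42.0 CPM at E10.5, 29.1, 21.9 and 24.1 CPM at E11.5 and 37.4, 56.0 and 34.5 CPM at E12.5. The highest E10.5 value was in replicate 3, the library that stood apart, and every E12.5 library lay above every E11.5 library. The log2 fold change from E11.5 to E12.5 was 0.76 ± 0.19 (SE), with an adjusted p of 0.0275 by edgeR's quasi-likelihood test, again short of the fold threshold. From E10.5 to E11.5 the value was -0.29 ± 0.23, and without E10.5 replicate 3 it was 0.0075. So within the SOX trio, Sox5 had its highest mean at E10.5 and Sox6 and Sox9 at E12.5, and none was called in any comparison.

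Acan encodes aggrecan, the large chondroitin sulfate proteoglycan that gives cartilage its resistance to compression. It lies on chromosome 7 at 79053483 to 79115099, on the plus strand. The libraries held 4, 2 and 3 counts at E10.5, 11, 14 and 18 at E11.5 and 175, 254 and 134 at E12.5. The 3 stages did not overlap. The means were 0.180 ± 0.0610, 0.738 ± 0.187 and 10.5 ± 2.91 CPM (SD, n = 3). From E11.5 to E12.5 the log2 fold change was 3.82 ± 0.29 (SE), with an adjusted p of 4.44e-05 by edgeR's quasi-likelihood test, and over both intervals it was 5.83 ± 0.41, with an adjusted p of 5.08e-06. Both calls held in every setting that kept the gene. In both comparisons with E10.5, where it had 9 counts, Acan passed the low-count filter through the later stage. Its direction in these was set by the filter. The first interval was less secure. Its log2 fold change of 2.001 ± 0.48 (adjusted p = 0.0329, edgeR's quasi-likelihood test) rested on 9 counts at E10.5, and the call was lost when any library other than E10.5 replicate 3 was left out (adjusted p = 0.0654 to 0.157). The adjusted p was 0.0787 by DESeq2 and 0.0630 when every gene with a count was kept, although the log2 fold change stayed between 1.77 and 2.25 in all of these fits.

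Hapln1 encodes link protein, which fastens aggrecan to hyaluronan. It lies on chromosome 13 at 89539796 to 89611652, on the plus strand. Its level was 45.2, 43.0 and 80.6 CPM at E10.5, 22.1, 27.6 and 20.1 CPM at E11.5 and 17.7, 28.1 and 22.6 CPM at E12.5. Every E10.5 library lay above all 6 later ones, and the E11.5 and E12.5 libraries overlapped. It fell by 1.27 on the log2 scale from E10.5 to E11.5 (SE 0.26, adjusted p = 0.0186, edgeR's quasi-likelihood test) and by 1.29 from E10.5 to E12.5 (SE 0.27, adjusted p = 0.00614). Without E10.5 replicate 3, its highest library, the values were -0.91 (adjusted p = 7.65e-05) and -0.94 (adjusted p = 0.00628), so both missed the fold threshold and not the p threshold. The first call was also lost without E11.5 replicate 1 (adjusted p = 0.106) or E11.5 replicate 3 (adjusted p = 0.0974). From E11.5 to E12.5 the log2 fold change was -0.03 ± 0.19, with an adjusted p of 0.925. Over the whole interval Acan was called up and Hapln1 down. The direction of Acan was set by the low-count filter, so this contrast was not tested.

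The matrilins and COMP make up 4 of the members, which bridge collagen fibrils and proteoglycans. Matn3 lies on chromosome 12 at 8947929 to 8972028, on the plus strand. Its libraries held 62, 61 and 85 counts at E10.5, 37, 39 and 34 at E11.5 and 10, 19 and 13 at E12.5. The 3 stages did not overlap, with means of 4.16 ± 0.956, 1.89 ± 0.1003 and 0.788 ± 0.231 CPM (SD, n = 3). It fell by 1.14 on the log2 scale in the first interval (SE 0.25, adjusted p = 0.0244, edgeR's quasi-likelihood test), by 1.25 in the second (SE 0.33, adjusted p = 0.0329) and by 2.38 over both (SE 0.36, adjusted p = 8.95e-04). The fall over both intervals was called in every setting. The first call was lost without E10.5 replicate 3, where the value was -0.93 (adjusted p = 0.0111), and without any of the E11.5 libraries (adjusted p = 0.0929 to 0.121). The second was kept without E12.5 replicate 2 and lost without each of the other 5 libraries (adjusted p = 0.0653 to 0.115).

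Matn4 went the other way. It lies on chromosome 2 at 164389393 to 164405160, on the minus strand, and 2.88% of its exon bases overlap Rbpjl on the opposite strand. The E10.5 libraries held 0 counts each, the E11.5 libraries 11, 12 and 7, and the E12.5 libraries 266, 305 and 329. The level at E12.5 was 17.02 ± 2.37 CPM (SD, n = 3), and the 3 stages did not overlap. In the second interval it rose by a log2 fold change of 5.03 ± 0.24 (SE, adjusted p = 3.33e-06, edgeR's quasi-likelihood test), between 4.83 and 5.12 under the alternatives. Across both intervals Matn4 was called up (adjusted p = 3.15e-06) and was at least 284-fold higher, taking 3 counts over the stage as the limit that a count of 0 allows. From E10.5 to E11.5 it did not pass the low-count filter, and 30 counts against 0 put it at least 8.60-fold higher. In the edgeR fit that kept every gene with a count, that difference had an adjusted p of 0.00555.

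Matn1, the founding matrilin, also named cartilage matrix protein, lies on chromosome 4 at 130944385 to 130955475, on the plus strand. It had 4, 0 and 0 counts at E10.5, 0, 0 and 3 at E11.5 and 11, 6 and 5 at E12.5. All E12.5 libraries were above the earlier ones, at 0.414 ± 0.179 CPM (SD, n = 3), but the gene never passed the filter. The pooled counts of E12.5 and E11.5 gave a ratio of 8.07, with an exact Poisson 95% interval of 2.42 to 42.1 that covers counting error only, and edgeR's quasi-likelihood test without the filter gave an adjusted p of 0.0611. Comp lies on chromosome 8 at 70373558 to 70382066, on the plus strand, and had 1, 5 and 0 counts at E10.5, 8, 3 and 6 at E11.5 and 4, 1 and 6 at E12.5. Its stages overlapped, and no difference was detectable at this depth (adjusted p = 0.544 to 0.764 in the edgeR fits without the filter).

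Cnmd encodes chondromodulin, a glycoprotein of avascular cartilage that inhibits the growth of blood vessels. It lies on chromosome 14 at 79637690 to 79662170, on the minus strand. Each E10.5 library held 1 count, the E11.5 libraries 12, 4 and 16, and the E12.5 libraries 274, 256 and 313. The stages did not overlap, and the E12.5 level was 15.97 ± 2.47 CPM (SD, n = 3). From E11.5 to E12.5 the log2 fold change was 4.83 ± 0.33 (SE, adjusted p = 3.08e-05, edgeR's quasi-likelihood test), between 4.39 and 5.24 under the alternatives. Across both intervals Cnmd was called up (adjusted p = 9.68e-07), with a ratio of pooled counts of 266 and an exact Poisson 95% interval of 90.7 to 1292. From E10.5 to E11.5 the ratio was 9.17 (2.87 to 46.8), and the adjusted p in the edgeR fit without the filter was 0.0384. The summed level of the 6 endothelial markers was 271 to 286 CPM at E11.5 and 231 to 291 CPM at E12.5, and none of them was called.

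Tnmd, which encodes the tendon relative of chondromodulin, was at 0.0176 CPM at E11.5 and 9.10 CPM at E12.5, with an adjusted p of 1.17e-05 by edgeR's quasi-likelihood test. It had 1 count over the E11.5 libraries and 480 over those of E12.5. It thus passed the low-count filter through E12.5, and its direction was set by the filter. Of the 6 tendon and ligament markers, Scx, Tnmd and Kera were called up from E11.5 to E12.5 and none down, against 4.14% and 0.962% of all genes. Their summed level was 13.6 to 18.9 CPM in the E10.5 libraries, 26.1 to 27.99 CPM a day later and 46.9 to 64.5 CPM in the E12.5 libraries, with Tnmd at or below 3 counts in every library of the first 2 stages. The part of this list in the rise of Matn4 and Cnmd was not tested.

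**Figure D3:**
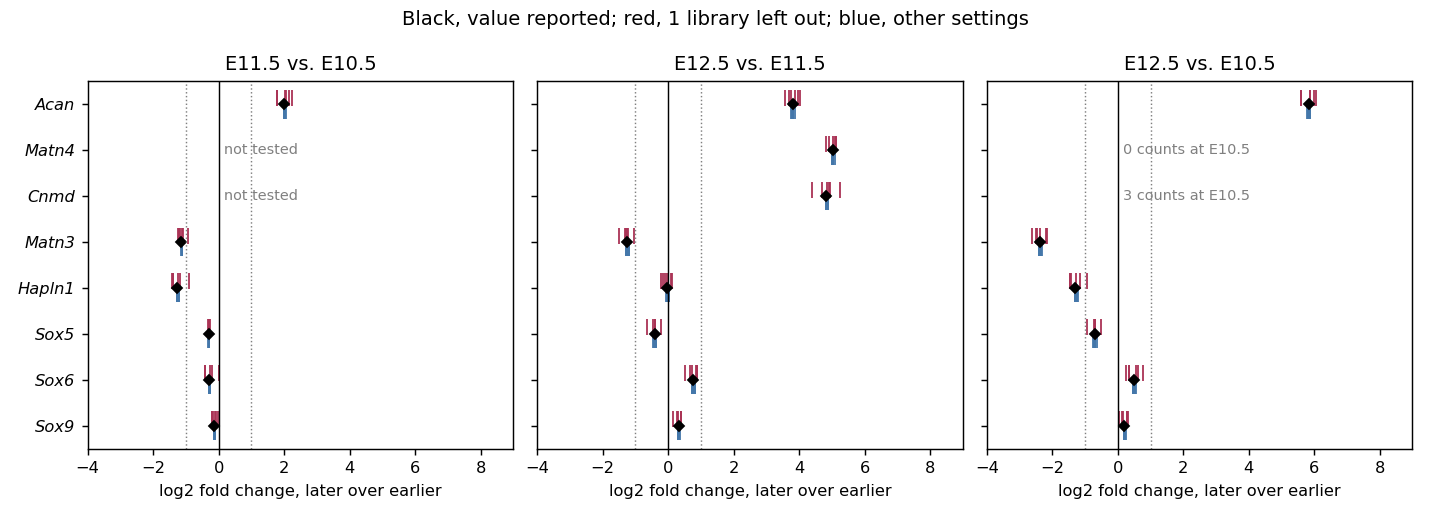
Log2 fold change of the 8 genes that were tested at least once, under each processing alternative, for the 3 comparisons. The black diamond is the value reported, red ticks leave out 1 library, blue ticks are the other settings, dotted lines mark a log2 fold change of 1 in size, and Matn4 and Cnmd are not drawn where they had 0 to 3 counts at E10.5. The Acan, Matn4 and Cnmd ticks at E12.5 vs. E11.5 stay at 3.58 or more, whereas those of Hapln1 and Matn3 at E11.5 vs. E10.5 fall on both sides of -1.

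Levels per kilobase of the listed gene length (CPM per kb) allow the members to be ranked within a stage. At E10.5, Sox9 was highest at 27.6 CPM per kb, followed by Hapln1 at 9.53, Sox5 at 4.36, Sox6 at 2.07 and Matn3 at 1.38. The remaining 5 were at 0.0396 or less. Among these neighbours only Sox6 and Matn3 overlapped between libraries. At E11.5 Sox9 was at 25.1, Hapln1 at 3.94 and Sox5 at 3.53, and the last pair overlapped. At E12.5 Sox9 was again highest at 31.5 CPM per kb, and Cnmd, among the lowest at E10.5, was second at 8.66 with no overlap with either neighbour. Hapln1 at 3.87, Matn4 at 3.29, Sox6 at 2.87 and Sox5 at 2.66 followed, and each overlapped the next in the order. Acan was lower than all of these at 1.41, and Matn3 at 0.261, Matn1 at 0.207 and Comp at 0.0716 were lowest, the first pair of these with overlap.

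Whether the second step differed from the first was tested in 1 fit over the 9 libraries. None of the 8 tested members passed edgeR's quasi-likelihood test after Benjamini-Hochberg adjustment, and none passed by DESeq2, while 1.18% of all 16375 genes did in edgeR. Unadjusted, 3 members had a p under 0.05 with each tool. In edgeR the second step exceeded the first on the log2 scale by 1.06 ± 0.42 (SE) for Sox6 (adjusted p = 0.325), by 1.82 ± 0.73 for Acan (adjusted p = 0.328) and by 1.24 ± 0.44 for Hapln1 (adjusted p = 0.262). The Hapln1 difference was called, at 1.21 and an adjusted p of 0.0166, when every gene with a count was kept. No value is given for Matn4 and Cnmd, whose first step starts from 0 and 3 counts.

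Over the 9 libraries the log2 CPM of Acan, Matn4 and Cnmd had Pearson correlations of 0.98 with each other, and Matn3 correlated with them at -0.93 to -0.95. These are descriptions over libraries that share 3 stages. Sox9 correlated with Acan at 0.50, Matn4 at 0.43 and Cnmd at 0.47. By the same measure, over 16375 genes and 9 libraries, the nearest genes to Acan were Egfl6 (0.99), Hs3st5 (0.99) and Aspn (0.99). Those nearest to Matn4 were Hs3st5 (0.99), Anxa1 (0.99) and Ndrg1 (0.99), and those nearest to Sox9 were Slc44a3 (0.91), Snap25 (0.91) and Fos (0.88).

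The wider cartilage program was followed in 3 further lists. The chondrogenic regulators and signals held 14 genes. Of these, Nkx3-2 had 26, 8 and 0 counts over the 3 stages in order, and Ihh had 6, 6 and 15. Neither was tested in any comparison, and the Nkx3-2 libraries of each later stage all lay below those of the earlier ones. From E10.5 to E11.5, 5 of the 11 tested were called up and none down, against 3.46% and 2.61% of all genes. Their median log2 fold change was 1.03. The 4 largest changes included Pax1 (5.82), Runx2 (3.75) and Pax9 (2.09), transcription factors of skeletal and pharyngeal mesenchyme. They also included Runx3, another RUNX factor, whose fold is not given because it had 3 counts over the E10.5 libraries, at 0.0581 CPM before and 3.36 CPM after. Pax1, with 17 counts at E10.5, and Runx3 passed the low-count filter through E11.5, so their direction was set by the filter. The count and median therefore describe the tested genes only. In the second interval, 4 of 12 were called up and 1 down, against 4.14% and 0.962% of all genes, with a median of 0.67. Runx3 (2.42), Pax1 (2.27), Mef2c (1.25) and Fgfr3 (1.15), the receptor that restrains chondrocyte proliferation, made up the 4. Bmpr1b, a BMP receptor of early condensations, was called down at -1.05, and was not called with the GC trend removed. From E10.5 to E12.5, 8 of 12 were called up and 1 down, against 9.97% and 5.08% of all genes. Without E10.5 replicate 3 the counts were 7 up and 0 down, and the share over all genes for that fit is not given. Pax1, Runx3 and Gdf5, with 17, 3 and 17 counts at E10.5, passed the filter through E12.5, so their direction was set by it.

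The list of other cartilage matrix and proteoglycan-making genes had genes called up and none called down in all 3 comparisons. Of 24 genes, 2 of the 16 tested were called up from E10.5 to E11.5, namely Otor (2.27) and Matn2 (1.56), with a median of 0.15. Otor, with 30 counts at E10.5, passed the low-count filter through E11.5, so its direction was set by the filter. Over all genes 3.46% were called up and 2.61% down. In the second interval, 10 of 19 were called up and none down, against 4.14% and 0.962% of all genes, with a median of 1.03. The largest changes were in Susd5 (2.66), Epyc (2.47), which encodes the small proteoglycan epiphycan, Chad (2.27), which encodes chondroadherin, and Matn2 (2.01), the matrilin outside the set. Over both intervals 10 of 19 were called up and none down, against 9.97% and 5.08% of all genes. Epyc, Prelp, Cilp and Otor among them, with 5, 16, 4 and 30 counts at E10.5, passed the low-count filter through E12.5, so their direction was set by it. Prg4, called up in the second interval and over both, had 32 counts at E10.5 and 36 at E11.5. It also passed the filter through E12.5, which favours a rise. Chad, Epyc and Prelp, with 10, 10 and 24 counts at E11.5, were tested in the second interval and not in the first. They passed the low-count filter through E12.5, so their direction was set by the filter, and the count and median describe the tested genes only. Whether the list's intervals differed was not tested. Snorc, Mia, Clec3a and Scrg1 were not tested in any comparison because of low counts. Ucma had 37, 28 and 2 counts over the 3 stages in order, and its E12.5 libraries all lay below those of E10.5. It was tested in the first interval only, where it was not called, so the list's lack of down calls does not cover its later fall.

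Of the 8 cartilage collagens, 1 of 7 tested was called up in the first interval, Col9a2 (1.06), and 3 of 7 in the second, Col9a3 (2.16), Col9a2 (1.86) and Col11a2 (1.67). The medians were 0.34 and 0.67. Over all genes 3.46% were called up in the first interval and 4.14% in the second. Without E10.5 replicate 3 no collagen was called in the first interval. Col2a1, named after its values were seen because it is the main fibrillar collagen of cartilage, had means of 688, 402 and 377 CPM, and its log2 fold change from E10.5 to E12.5 was -0.86 (adjusted p = 0.0253, edgeR's quasi-likelihood test), not called for its size. It was called down without E10.5 replicate 3 and with the GC trend removed. Over both intervals 4 of 7 collagens were called up and none down, against 9.97% and 5.08% of all genes. Without E10.5 replicate 3 these counts were 3 up and 1 down, with Col27a1 no longer called, and with the GC trend removed they were 4 up and 1 down.

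**Figure D4:**
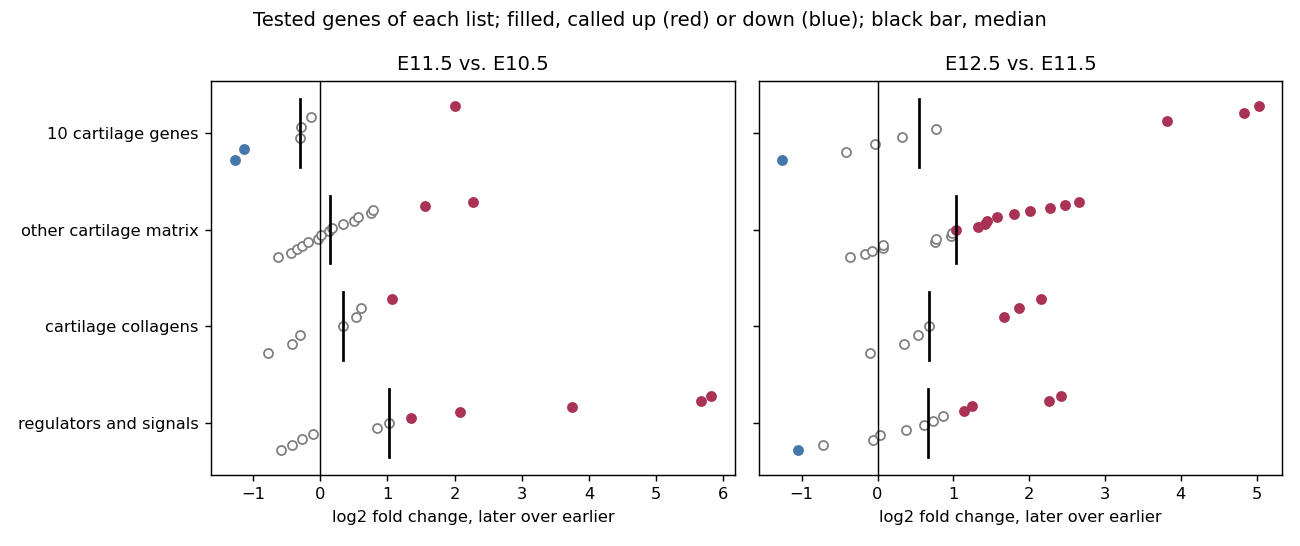
Log2 fold change of every tested gene of the set and of the 3 companion lists from E10.5 to E11.5 and from E11.5 to E12.5. Each point is a gene, filled red where called up, filled blue where called down and open otherwise, and black bars are list medians. The first-interval points of Pax1 and Runx3 rest on 17 and 3 counts at E10.5. In the second interval the other cartilage matrix genes have a median of 1.03 and 10 red points, and Acan, Matn4 and Cnmd lie to the right of all of them.

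Markers of other cell types that changed between the stages stand beside these results. Over all genes, 3.46% were called up and 2.61% down in the first interval, and 4.14% and 0.962% in the second. The 7 neural progenitor and placode markers had a summed level of 740 to 762 CPM in the E10.5 libraries, 284 to 358 CPM a day later and 238 to 280 CPM in those of E12.5. From E10.5 to E11.5, 6 of 7 were called down, the same interval in which Hapln1 and Matn3 fell. In E10.5 replicate 3, the library highest in Hapln1 and Matn3, this sum was 762 CPM against 749 and 740 in the others of that stage. The ranges of the epithelial sum, highest at E10.5 in that same library, were 414 to 757, 431 to 455 and 670 to 744 CPM over the 3 stages, with 1 marker up and 1 down in the first interval and 2 up in the second. Without E10.5 replicate 3 the first interval had 2 up, Krt5 and Krt14, and 0 down, as Krt18 was no longer called. The glia and Schwann cell precursor sum was 55.7 to 66.5, then 78.7 to 86.9, then 84.0 to 121 CPM, with 1 of 5 tested markers up in the first interval and 4 of 6 in the second. S100b, with 5 counts at E11.5, passed the low-count filter through E12.5. Sox1 of the neural markers, with 38 counts at E11.5, passed it through E10.5. The direction of both was set by the filter. Vascular smooth muscle markers were low throughout at 5.64 to 12.4 CPM summed. Of the skeletal muscle markers, Des, which smooth and heart muscle also express, went from 15.3 CPM at E10.5 to 0.807 CPM at E12.5 and was called down, whereas Myod1 went from 0.0593 to 0.358 CPM and Myog from 0.0387 to 0.768 CPM, both untested and without overlap between these stages. The facial mesenchyme sum was 1040.85 to 1721 CPM at E10.5. In the first interval, in which Pax1, Pax9 and Runx2 rose, Msx1 and Pdgfra of its 8 markers were called up, with a median of 0.72, and without E10.5 replicate 3 Pdgfra alone was. The sum was 2346 to 2492 CPM at E11.5 and 2389 to 2683 CPM at E12.5, and none of its 8 markers was called in the second interval, in which Acan, Matn4 and Cnmd rose. The part of the other cell types in the changes of the cartilage genes and of these lists was not tested.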

How the data were processed

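RNA-seq was analysed in 9 libraries of pooled mouse lambdoidal junctions, 3 per stage. The authors mapped reads to mm10 with HISAT2 2.0.5, and gene counts came from featureCounts; strand and multi-mapping settings are not given in the sources used here. The deposited count columns hold whole-number counts without normalization, and only these and the listed gene lengths were used. The other deposited columns were left out: FPKM values, normalized mean signal, and the authors' own log2 fold changes and p-values between stages. Genes were filtered with filterByExpr, scaled by TMM and tested per pair of stages with edgeR 4.0.16 (glmQLFit, glmQLFTest) in R 4.3.3, with Benjamini-Hochberg adjustment over all genes tested. DESeq2 1.42.0 was an alternative. Log2 CPM used a prior count of 2. Members and gene lists were chosen with earlier results of these data known. Every member was named. From each companion list at most 4 called genes with the largest changes per interval were named, from the marker lists those beside a result, and for Sox9, Acan and Matn4 the 3 genes with the highest correlation. Exon overlap was read from GENCODE annotation. The tests were checked on simulated data. There, changes were set only in genes with higher counts and with 1 spread for all genes. The check thus does not cover members with few counts. GC-trend removal and list counts without E10.5 replicate 3 were chosen after seeing the data. Depths are given in the results, and intervals and floors cover counting error only. With 3 libraries against 3, an exact permutation test cannot go below p = 0.1, so none is reported.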

Additional observations from a re-analysis of the deposited data

How the results depend on the processing

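Of the counts that answer a comparison, 95 values under the alternatives stayed within 1.5 times the count reported and 18 moved further. Members called from E10.5 to E11.5 numbered 3, and 0 at an adjusted p of at most 0.01, 5 in a fit on all 9 libraries and 0 to 3 when 1 library was left out, with 0 without E11.5 replicate 1 or 3. The 3 called without E10.5 replicate 3 were Acan, Matn4 and Cnmd, and those of DESeq2 were Hapln1, Matn3 and Matn4. Of 9 correlations of same-numbered deviations, 2 exceeded 0.1 (-0.15 to 0.22), both between E10.5 and E12.5. Differently numbered libraries were not compared, so whether the replicate numbers pair the libraries was not settled. With the replicate number as a block 1 member, Hapln1, was called from E10.5 to E11.5. With at least 10 counts required in every library, 2 members were called from E11.5 to E12.5, where 4 had been, and 2 from E10.5 to E12.5, where 5 had been, because Matn4 and Cnmd were no longer tested, nor Acan in the latter. Leaving out 1 library gave 3 to 4 and 4 to 5. Over all genes, 954, 806 and 2392 were called in the 3 comparisons. At an adjusted p of at most 0.01 the first 2 were 462 and 498, and without a fold threshold all 3 were 1849, 1926 and 3906. Leaving out 1 library gave 395 to 1592 in the first and 502 to 1181 in the second. Unequal steps went from 0 to 1 member when every gene with a count was kept. Values near 0 changed sign. Leaving out 1 library gave Sox6 from E10.5 to E11.5 a range of -0.43 to 0.0075. Hapln1 from E11.5 to E12.5 was 0.018 with upper quartile scaling, 0.017 with the GC trend removed and -0.22 to 0.12 when 1 library was left out. The difference between steps then ran from -0.36 to 0.090 for Matn3 and from -0.32 to 0.094 for Sox5. The cause was not tested. Depth limits Matn1 and Comp, with 22 and 17 counts at most per stage, and the E10.5 levels of Acan, Matn4 and Cnmd.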

Other observations

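Of the genes of bone formation, Runx2, Sp7 and Alpl were called up in at least 1 interval and Ibsp was called down. Runx2, the transcription factor that commits cells to the osteoblast lineage, had means of 4.44, 59.8 and 99.3 CPM over the 3 stages in order, and was called up in the first interval (log2 fold change 3.75, adjusted p = 0.00372, edgeR's quasi-likelihood test). Sp7, which encodes the osteoblast factor osterix, had 1.67, 7.23 and 28.7 CPM and was called up in both intervals. Alpl, the alkaline phosphatase of mineralizing cells, was called up in the second only, from 14.6 to 45.2 CPM, and the difference between its intervals was not tested. Ibsp, which encodes bone sialoprotein, was called down in the first interval, from 1.42 to 0.166 CPM (adjusted p = 0.0184). With 72 counts at E10.5 and 10 at E11.5, it passed the low-count filter through E10.5, so its direction was set by the filter. Dmp1 stayed at or below 3 counts in every library. The osteoblast list of 7 genes thus had 2 up and 1 down, Ibsp, of 4 tested from E10.5 to E11.5. It had 2 up of 4 from E11.5 to E12.5. Over all genes the shares were 3.46% up and 2.61% down, then 4.14% and 0.962%.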
